A study of Mus musculus with 8 samples.

Results

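Subplate neurons were followed here through 9 marker genes: Ccn2, Nxph4, Cplx3, Lpar1, Nr4a2, Moxd1, Tmem163, Pls3 and Drd1. They were chosen by symbol as markers of the subplate, and every array probe whose RefSeq accession matched one of these symbols was taken. This gave 13 of the 39429 gene probes on the array. Of the 9 genes, 7 (10 probes) were bright enough to be tested, among 19232 genes (23860 probes) tested in all, and Cplx3 and Tmem163 were not. The samples were neocortex of ICR mouse embryos at embryonic day 16, cut by hand into the ventricular and subventricular zone (V/SVZ), where progenitors divide, and the overlying cortical plate (CP), made up of postmitotic neurons. Each tissue has 4 samples, and total RNA of each was hybridised to a 1-colour Agilent array. No treatment or engineered allele is named for either group. The labels do not say into which piece the subplate and the intermediate zone fell, nor whether samples came from separate animals or litters, so p-values here speak of sample-to-sample spread alone, part of which may be technical.

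The subplate is a thin layer of early-born neurons directly below the cortical plate. Its neurons mature ahead of the others, receive the first thalamic axons and form transient circuits before many of them are lost. In the rodent it is recognised by genes that mark the layer in different ways. Some, such as Ccn2, Cplx3 and Nxph4, are fairly restricted to it in the postnatal cortex, and others, such as Nr4a2 and Lpar1, are also used by other cells of the embryonic forebrain.

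The markers did not move together between the tissues. By the brightest tested probe of each gene, Ccn2, Lpar1 and Moxd1 were higher in V/SVZ, Nr4a2 and Drd1 were higher in CP, and Nxph4 and Pls3 were not called either way at an adjusted p of 0.05 (limma, Benjamini-Hochberg over all probes tested). The 3 higher in V/SVZ stand beside 35% of all tested genes called in that direction, and the 2 higher in CP beside 44.6%. Calls either way were made for 79.5% of all genes, so 5 of 7 markers called is a share near the background. The arrays of the tissues did not overlap for the 5 called markers, as for 75.2% of all genes. By probe, 3 of the 10 tested marker probes were called towards V/SVZ and 3 towards CP, beside 35.2% and 44.4% of all tested probes (79.7% called either way, and 75.5% without overlap). The median difference of the 7 markers was 0.19 on the log2 scale (V/SVZ minus CP), and that of all genes was -0.09. Moxd1 and Drd1 entered the test only through the tissue in which each was bright, so they had to differ. In pieces of tissue, fewer cells of a type and less RNA per cell cannot be told apart.

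The arrays were alike in the share of probes detected, but every V/SVZ array was brighter than every CP array before scaling. The 75th percentile of the processed signal of gene probes ran from 2416 to 2566 intensity units in V/SVZ and from 2113 to 2264 in CP. Over all arrays, 58.4% to 62.9% of gene probes were well above background (the scanner software's flag for a spot brighter than its local background by a set margin). The 4 V/SVZ arrays share 1 slide and the 4 CP arrays share another, so slide and tissue cannot be told apart in any difference given here. By marker lists, 10 of 10 progenitor markers were higher in V/SVZ, and 12 of 12 deep-layer projection neuron markers were higher in CP. With only probes well above background on all 8 arrays, these counts were 8 and 11. The rest had passed the filter through 1 tissue alone. The lists were chosen with earlier results of these data known, so they are no independent check of the dissection.

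**Figure D1:**
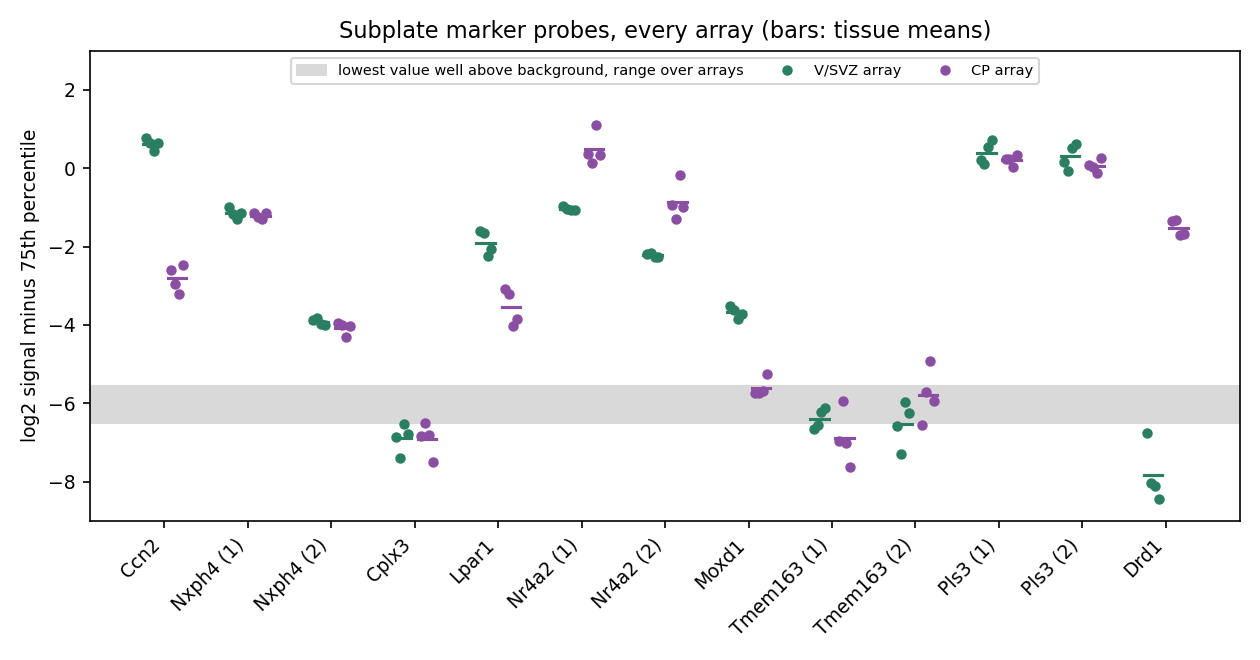
Every probe of the 9 subplate markers on each of the 8 arrays. The vertical axis is the log2 processed signal minus the 75th percentile of its array, points are arrays (V/SVZ in green, CP in purple), short bars are tissue means, numbers in brackets tell probes of 1 gene apart, and the grey band spans the lowest value well above background over the arrays (-6.51 to -5.55). Ccn2, Lpar1 and Moxd1 are higher in V/SVZ, Nr4a2 and Drd1 are higher in CP, Nxph4 and Pls3 overlap, and Cplx3 and Tmem163 lie near or below the band.

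Nr4a2 (Nurr1), an orphan nuclear receptor that acts as a transcription factor, is needed for midbrain dopamine neurons and marks subplate and claustrum neurons in the cortex. It was read by probes A_52_P494622 and A_55_P1983508, both designed on NM_013613. With the first probe, processed signals on V/SVZ arrays 1 to 4 were 1233, 1244, 1229 and 1197 intensity units. On CP arrays 1 to 4 they were 2909, 2358, 4653 and 2677. All CP arrays were brighter than all V/SVZ arrays, the V/SVZ arrays lay close together, and CP array 3 stood above the other CP arrays. On the log2 scale, relative to the 75th percentile of each array, the means were -1.03 ± 0.04 in V/SVZ and 0.48 ± 0.42 in CP (SD, n = 4 each). The difference was -1.52 (SE 0.19, limma adjusted p = 0.000124, 95% interval -1.96 to -1.08), a level 2.86-fold higher in CP. Of the 19232 tested genes, 1924 lay further towards CP.

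The second Nr4a2 probe showed the same order. Its log2 values were -2.19, -2.17, -2.26 and -2.26 on V/SVZ arrays 1 to 4 and -0.95, -1.29, -0.18 and -0.99 on CP arrays 1 to 4. CP array 3 was again the highest. The difference was -1.36 (SE 0.21, limma adjusted p = 0.000448), or 2.58-fold higher in CP. Without CP array 3 the differences were -1.31 for the first probe and -1.14 for the second, and both kept their call. Both relatives of Nr4a2 were called higher in CP, a direction called for 44.6% of all tested genes. Of these relatives, Nr4a3 entered the test through CP alone, which favours that direction. Nr4a1 (Nur77), an immediate-early gene of the same family, was 1.23-fold higher, and Nr4a3 (Nor1) was at least 2.13-fold higher, its probe being not well above background on any V/SVZ array. Such a bound divides the mean of the bright tissue by a floor for the dim one, which on each array is the lowest signal that counted as well above background, or the dim probe's own value where that was higher. On CP arrays 1 to 4 the log2 values of Nr4a1 were -0.31, -0.49, -0.28 and -0.35, and those of Nr4a3 were -5.12, -5.21, -4.65 and -5.22. After scaling, CP array 3 was the highest of the CP arrays for all 3 receptors of the family. For Nr4a1 the lead was small, and before scaling CP array 1 was brighter (1830 against 1781 intensity units).

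Promoter sequences of the members that differed between the tissues are shown so that the region ahead of their start can be read beside the values. They are the 250 bases before the RefSeq transcription start (assembly GRCm38.p6), written 5′ to 3′ on the strand of the gene. The RefSeq promoter table used here matched 7 of the 9 members, and Ccn2 and Nxph4 were not matched in it. Capitals mark the half-site of the cAMP response element, searched as TGACG on both strands. The windows are chr2:57124004-57124253 on the minus strand for Nr4a2, chr13:54055659-54055908 on the minus strand for Drd1, chr4:58553492-58553741 on the minus strand for Lpar1 and chr10:24223267-24223516 on the plus strand for Moxd1. For Drd1 and Lpar1, which have more than 1 start in the table, the start furthest upstream is shown.
Nr4a2: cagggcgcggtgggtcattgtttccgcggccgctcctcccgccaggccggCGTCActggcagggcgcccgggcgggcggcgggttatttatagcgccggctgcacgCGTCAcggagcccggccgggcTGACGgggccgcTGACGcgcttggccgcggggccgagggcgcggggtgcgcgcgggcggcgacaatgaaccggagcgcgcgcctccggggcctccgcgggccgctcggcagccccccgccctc
Drd1: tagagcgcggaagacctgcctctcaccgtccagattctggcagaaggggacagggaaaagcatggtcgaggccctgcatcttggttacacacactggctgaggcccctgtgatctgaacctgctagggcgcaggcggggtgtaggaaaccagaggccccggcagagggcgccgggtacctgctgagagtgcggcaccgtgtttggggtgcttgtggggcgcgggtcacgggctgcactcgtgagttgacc
Lpar1: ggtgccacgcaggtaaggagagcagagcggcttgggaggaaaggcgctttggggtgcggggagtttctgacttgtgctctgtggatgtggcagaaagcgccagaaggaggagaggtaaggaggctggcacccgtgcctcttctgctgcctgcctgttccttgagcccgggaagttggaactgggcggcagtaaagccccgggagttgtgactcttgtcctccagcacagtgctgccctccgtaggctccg
Moxd1: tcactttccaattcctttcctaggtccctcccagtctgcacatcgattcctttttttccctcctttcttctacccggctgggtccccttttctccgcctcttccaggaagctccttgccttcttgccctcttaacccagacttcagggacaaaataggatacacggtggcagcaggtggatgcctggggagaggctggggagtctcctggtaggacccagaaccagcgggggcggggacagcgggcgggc
The Nr4a2 window holds 4 such half-sites, which begin 200, 144, 123 and 111 bases upstream of the start. At least 1 half-site occurs in 17.8% of the 32851 promoters of the table, and at least 4 occur in 45 of them (0.137%). The Nr4a2 window is 80% G and C, against a median of 52.4% over all promoters. The Drd1, Lpar1 and Moxd1 windows hold no TGACG. The NBRE, the sequence that Nr4a receptors bind as monomers, was searched as AAAGGTCA on both strands. It occurs in 1.34% of promoters and in none of the windows of the 7 members. The 6 letters GGAATG, which TEAD factors bind, occur on either strand in 12.6% of promoters and in the windows of Pls3. These matches describe letters, and no binding was measured here. The motifs were picked for what is known of the members, with results of these data already known.

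Drd1, the D1 dopamine receptor, couples to a stimulatory G protein and is best known from striatal projection neurons, but deep cortical neurons also use it. Its only probe, A_52_P366764 (NM_010076), showed the greatest difference among the 7 tested markers. Processed signals on CP arrays 1 to 4 were 891, 856, 669 and 656 intensity units, all well above background. On V/SVZ arrays 1 to 4 they were 22.4, 9.78, 9.26 and 7.15, none well above background. The tissues lay far apart, and V/SVZ array 1 was the brightest of the dim group. Drd1 was at least 24.6-fold higher in CP (limma adjusted p = 6.36e-07). The measured log2 means were -7.84 ± 0.74 in V/SVZ and -1.51 ± 0.21 in CP (SD, n = 4 each). With another background correction (normexp, which models background and signal together), the log2 difference was -3.58, smaller in size than the bound of 4.62. This correction was run with an offset of 50 added to every value, which shrinks the differences of dim probes.

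The relatives of Drd1 gave little signal. Of the other dopamine receptors, Drd2, Drd3 and Drd5 were not bright enough to be tested in either tissue. Drd4 was tested and not called, with a difference of -0.08 (SE 0.14, limma adjusted p = 0.631), whose sign turned under median or quantile scaling. As Drd1 is also a striatal marker, the striatal list is given beside it. Among its other genes, Drd2, Isl1 and Tac1 were not tested, Ppp1r1b was 9.56-fold and Foxp1 7.75-fold higher in CP, and Meis2 was 3.59-fold higher in V/SVZ. In all, 8 of 11 striatal genes were tested, of which 3 were higher in V/SVZ, 4 higher in CP and 1 not called. The summed level of the list ran from 3.54 to 4.31 on the V/SVZ arrays and from 4.38 to 4.69 on the CP arrays (log2). The part of striatal cells in the Drd1 difference was not tested.

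Lpar1, a G protein-coupled receptor for lysophosphatidic acid, was first described in the ventricular zone of the embryonic cortex and later used to mark subplate neurons. Its probe was A_55_P2013019 (NM_172989). Processed signals were 791, 811, 538 and 596 intensity units on V/SVZ arrays 1 to 4. They were 268, 233, 132 and 148 on CP arrays 1 to 4. Every V/SVZ array was brighter than every CP array, and in both tissues arrays 1 and 2 were brighter than arrays 3 and 4. The log2 means were -1.90 ± 0.31 in V/SVZ and -3.54 ± 0.47 in CP (SD, n = 4 each). The difference was 1.64 (SE 0.25, limma adjusted p = 0.000407, 95% interval 1.06 to 2.22), or 3.12-fold higher in V/SVZ, and 1674 genes (8.70%) lay further towards V/SVZ. Between arrays with the same replicate number the differences were 1.47, 1.54, 1.78 and 1.77. These 4 values lay closer together than the levels themselves.

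All 5 relatives of Lpar1, the other lysophosphatidic acid receptors, were tested. Lpar4 was 4.76-fold and Lpar6 5.61-fold higher in V/SVZ, and Lpar3 was at least 2.05-fold higher there, or 1.86-fold with normexp. Lpar5 was not called (difference -0.40, SE 0.22, limma adjusted p = 0.120). Lpar2 was called higher in CP, by 1.08-fold (limma adjusted p = 0.0315), but its call was lost under 9 alternatives and its sign turned with normexp background correction. Lpar1 was called in the same direction as 3 of its 5 relatives, beside 35% of all tested genes called towards V/SVZ. Of these relatives, Lpar3 entered the test through V/SVZ alone, which favours that direction.

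**Figure D2:**
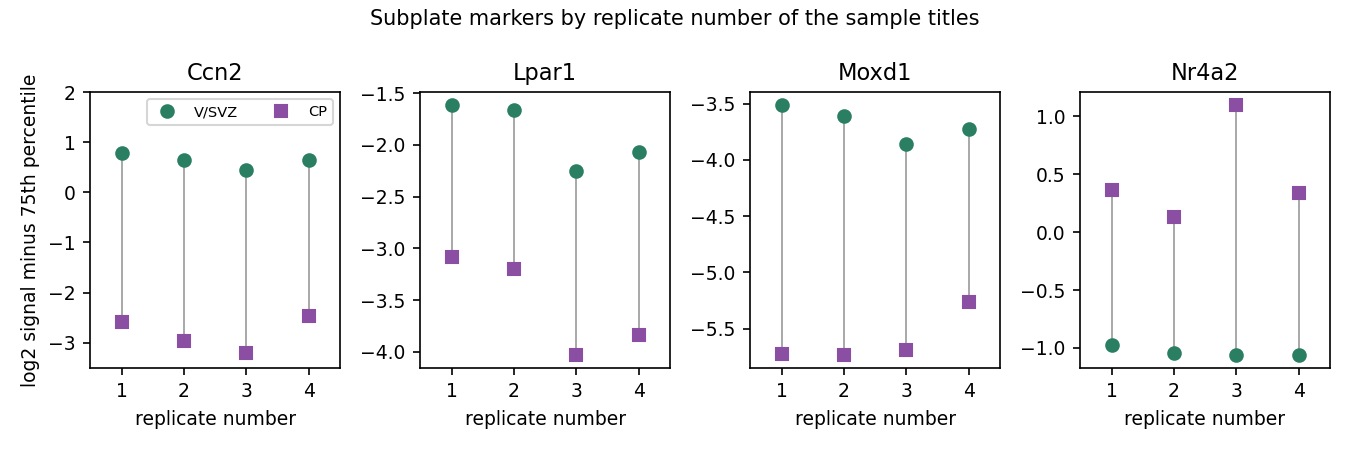
Ccn2, Lpar1, Moxd1 and Nr4a2 (first probe) by the replicate number in the sample titles. The vertical axis is the log2 processed signal minus the 75th percentile of the array, circles are V/SVZ arrays, squares are CP arrays, and a grey line joins arrays of the same number. Lpar1 falls from numbers 1 and 2 to 3 and 4 in both tissues, with differences of 1.47 to 1.78 within a number, and the CP array of number 3 has the highest Nr4a2 value and the lowest Ccn2 value. Moxd1 is not well above background on any CP array.

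Ccn2 (connective tissue growth factor), a secreted matrix protein of the CCN family, is among the most used markers of the subplate and layer 6b. Probe A_51_P157042 (NM_010217) gave processed signals of 4145, 3990, 3477 and 3904 intensity units on V/SVZ arrays 1 to 4. On CP arrays 1 to 4 the signals were 376, 276, 236 and 383. All 8 values were well above background, and the tissues were far apart. The log2 means were 0.62 ± 0.14 in V/SVZ and -2.80 ± 0.34 in CP (SD, n = 4 each). The difference was 3.43 (SE 0.16, limma adjusted p = 2.87e-07, 95% interval 3.05 to 3.81), so Ccn2 was 10.8-fold higher in V/SVZ, and 8.50-fold with normexp background correction. Only 536 genes (2.79%) lay further towards V/SVZ.

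Of the 5 relatives of Ccn2, Ccn1 and Ccn4 were tested and both were called higher in V/SVZ, while Ccn3, Ccn5 and Ccn6 were too dim to be tested. Ccn1 (Cyr61), a secreted matrix protein and immediate-early gene, was 78.3-fold higher, or 28.8-fold with normexp. Ccn4 (Wisp1) was 1.83-fold higher, or 1.18-fold with normexp. Each of them was well above background on 2 of 4 CP arrays, so both entered the test through V/SVZ alone, which favours that direction. Of all tested genes, 35% were called towards V/SVZ. Because endothelial, mural and meningeal cells also make Ccn2 and Ccn1, the list of their markers is given beside these genes. Of 16 such markers, 15 were tested, with 4 higher in V/SVZ, 2 higher in CP and 9 not called. Pdgfrb, a pericyte receptor, was 1.90-fold higher in V/SVZ, Col1a2, a fibrillar collagen gene, was 2.05-fold higher in V/SVZ and Col3a1, another, was 2.20-fold higher in CP. The summed level of the list ran from 3.24 to 3.42 on the V/SVZ arrays and from 3.01 to 3.18 on the CP arrays (log2). The count higher in CP was 4 with the replicate number as a block, with normexp background correction and without CP array 1, and 5 with spike-in scaling. The block also gave 5 genes of the list higher in V/SVZ. The part of these cells in the Ccn2 difference was not tested.

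Nxph4 (neurexophilin 4) is a secreted ligand of neurexins, the presynaptic adhesion proteins. Its brighter probe, A_55_P2085311 (NM_183297), gave processed signals of 1209, 1149, 1042 and 1129 intensity units on V/SVZ arrays 1 to 4 and 1028, 901, 879 and 961 on CP arrays 1 to 4. These signals are not yet scaled to the brightness of each array. After scaling, the log2 means were -1.15 ± 0.12 in V/SVZ and -1.21 ± 0.08 in CP (SD, n = 4 each), and the tissues overlapped. The difference was 0.06 (SE 0.07, limma adjusted p = 0.472), with a 95% interval of -0.11 to 0.22. In absolute size, 6.83% of tested genes had a smaller difference. The second probe, A_55_P2165008, lay at -3.87, -3.83, -3.99 and -4.02 on the V/SVZ arrays and at -3.96, -4.00, -4.30 and -4.04 on the CP arrays. These ranges overlapped too, and the difference was 0.15 (SE 0.08, limma adjusted p = 0.132, 95% interval -0.04 to 0.34). Each probe's small difference turned sign under 1 setting, the first with spike-in scaling and the second with normexp background correction. The second was called with array weights (difference 0.20, limma adjusted p = 0.0414).

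The 3 relatives of Nxph4 were all called higher in CP, a direction called for 44.6% of all tested genes. Nxph1 was 2.55-fold and Nxph2 was 2.89-fold higher. Nxph3, which is also expressed by layer 6b neurons, was 45.1-fold higher in CP.

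Moxd1 is a copper-dependent monooxygenase related to dopamine beta-hydroxylase. Probe A_51_P493987 (NM_021509) gave processed signals of 212, 210, 177 and 190 intensity units on V/SVZ arrays 1 to 4, all well above background. On CP arrays 1 to 4 it gave 42.7, 40.3, 42.1 and 55.0, none of which was well above background. CP array 4 was the brightest of the dim group, and the tissues did not overlap. Moxd1 was at least 3.75-fold higher in V/SVZ (limma adjusted p = 1.78e-06). The measured log2 means were -3.67 ± 0.15 in V/SVZ and -5.60 ± 0.23 in CP (SD, n = 4 each). With normexp background correction, whose offset shrinks the differences of dim probes, the fold was 1.79, less than the bound, and the call stood. Its relatives Dbh, which makes noradrenaline, and Moxd2 were not bright enough to be tested.

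Pls3 (plastin 3, or T-fimbrin) bundles actin filaments, and it was detected on every array. Probe A_55_P2141851 (NM_145629) had log2 values of 0.21, 0.12, 0.54 and 0.72 on V/SVZ arrays 1 to 4. On CP arrays 1 to 4 they were 0.22, 0.25, 0.03 and 0.33. V/SVZ arrays 3 and 4 lay above all CP arrays, and V/SVZ arrays 1 and 2 lay among them. The difference was 0.19 (SE 0.14, limma adjusted p = 0.235, 95% interval -0.13 to 0.51), and 21.6% of genes had a smaller one in absolute size. The second probe, A_55_P2079746, had values of 0.16, -0.07, 0.51 and 0.62 in V/SVZ and 0.08, 0.04, -0.12 and 0.27 in CP. Its difference was 0.24 (SE 0.16, limma adjusted p = 0.195, 95% interval -0.13 to 0.61). Without V/SVZ array 2 it was 0.37 and called (limma adjusted p = 0.0403). Both relatives of Pls3 were called higher in V/SVZ, a direction called for 35% of all tested genes. Of these relatives, Pls1 entered the test through V/SVZ alone, which favours that direction. Pls1 (plastin 1) was at least 3.85-fold higher, or 2.93-fold with normexp, and Lcp1 (plastin 2), the plastin of blood cells, was 1.82-fold higher. Microglia markers, given beside Lcp1, were higher in V/SVZ for 6 of 7 genes, with a summed level of 3.07 to 3.56 on the V/SVZ arrays and 1.41 to 1.90 on the CP arrays (log2), and their part in the Lcp1 difference was not tested.

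Cplx3 (complexin 3) binds the SNARE complex that drives synaptic vesicle release, and is a sharp marker of the mature subplate. Its probe, A_51_P470851 (NM_146223), was not well above background on any of the 8 arrays. Processed signals were 20.7, 15.3, 27.7 and 22.5 intensity units on V/SVZ arrays 1 to 4 and 19.8, 23.5, 19.3 and 11.7 on CP arrays 1 to 4. The lowest signal that counted as well above background was 27.4 to 45.1 units, depending on the array, so no difference in Cplx3 was detectable at this signal. Its relatives Cplx1 and Cplx2, complexins of most central synapses, were called higher in CP by 11.9-fold and 2.08-fold. Cplx4 was not bright enough to be tested.

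Tmem163 is a zinc-binding membrane protein of synaptic vesicles. Its probes A_55_P1973043 and A_55_P1973041 (NM_028135) were also at the limit of detection. The first gave 24.0, 27.3, 34.2 and 35.7 intensity units on V/SVZ arrays 1 to 4 and 18.1, 34.8, 16.8 and 10.6 on CP arrays 1 to 4, and was well above background on 1 V/SVZ array. The second gave 25.3, 16.4, 40.9 and 33.0 on the V/SVZ arrays and 23.9, 40.8, 71.2 and 34.0 on the CP arrays, and was well above background on 2 V/SVZ arrays and 1 CP array. The means of the probes leaned opposite ways, by 0.50 and -0.73 (log2, V/SVZ minus CP), and neither was tested.

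**Figure D3:**
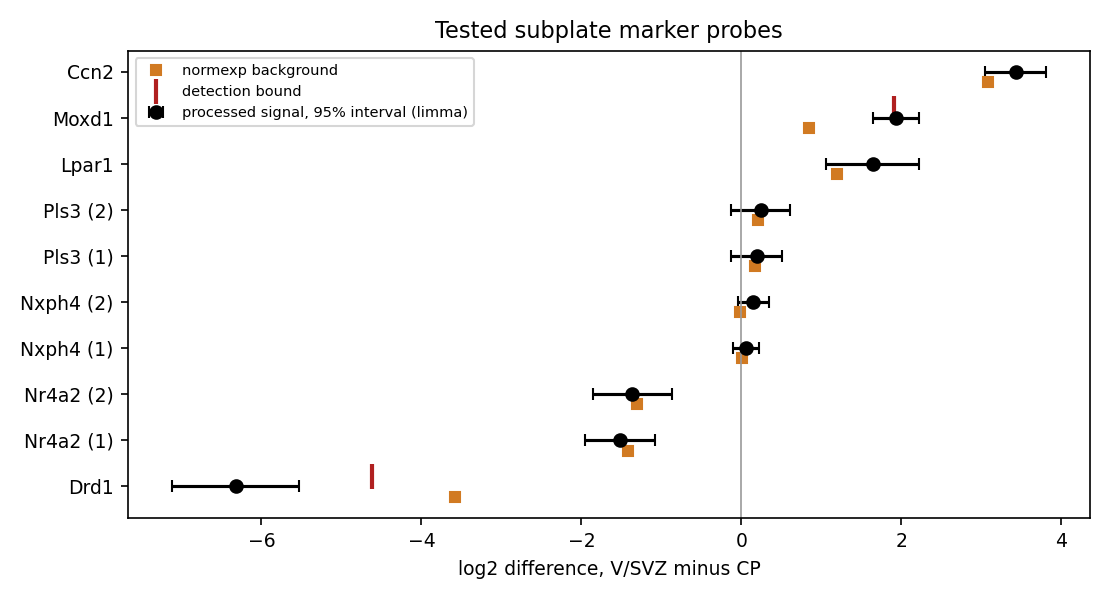
Differences of the 10 tested subplate marker probes. The horizontal axis is the log2 difference, V/SVZ minus CP (4 arrays each); black points with bars are the processed signal with its 95% interval from limma, orange squares are the differences with normexp background correction, and red ticks are the detection bounds of Moxd1 and Drd1. The intervals of Nxph4 and Pls3 cross 0, and the intervals of the other 6 probes do not.

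For the 3 markers with a pair of tested probes, the within-array log2 ratio of the brighter to the dimmer probe was compared between the tissues. A pair of probes that follow the same RNA should keep this ratio. For Nr4a2 it was 1.19 ± 0.04 in V/SVZ and 1.34 ± 0.06 in CP (SD, n = 4 each; exact two-sided permutation p = 0.0286, the smallest that 4 against 4 arrays allow, and 0.0857 adjusted over the 3 pairs). For Nxph4 the ratio differed by -0.09 (exact permutation p = 0.229, adjusted 0.343) and for Pls3 by -0.05 (exact permutation p = 0.343, adjusted 0.343). For Nr4a2 every CP ratio lay above every V/SVZ ratio, but with 3 pairs adjusted together a single pair cannot pass the threshold with 4 against 4 arrays, so the adjusted values do not show that the probes agree. Where a marker had a pair of tested probes, both gave the same direction in the main values.

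**Figure D4:**
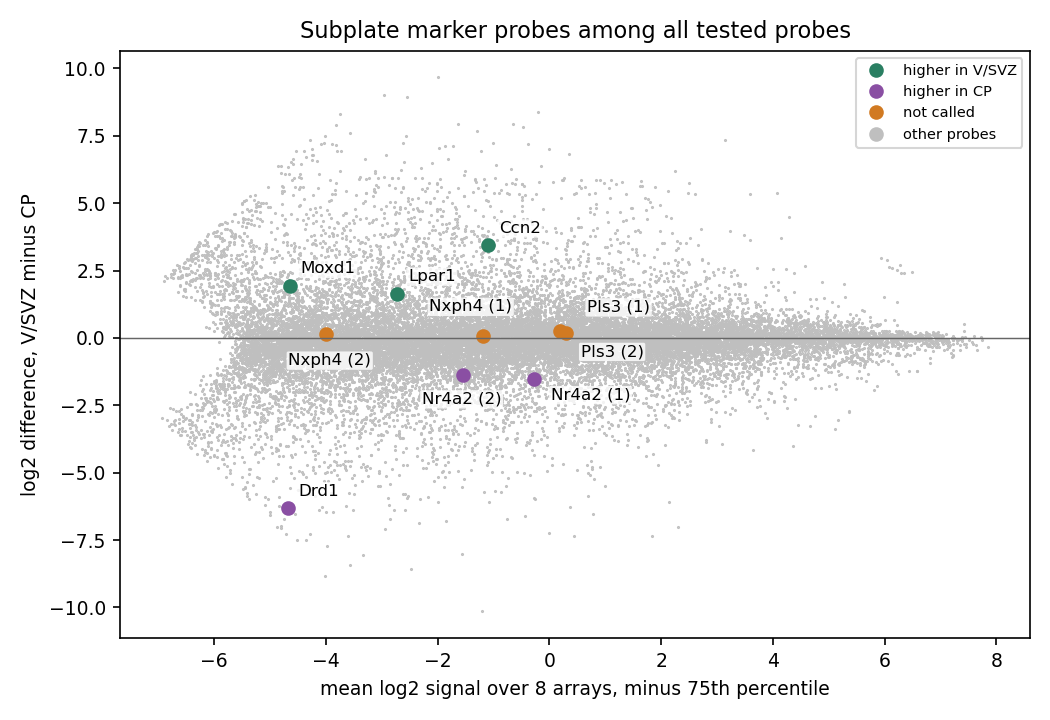
The 10 tested subplate marker probes among all 23860 tested probes. The horizontal axis is the mean log2 signal over the 8 arrays minus the 75th percentile, the vertical axis is the log2 difference, V/SVZ minus CP, grey points are other probes, and coloured points are marker probes by their call. Drd1 is drawn at its fitted value of -6.32, which rests on V/SVZ signals not well above background (the bound is 4.62 towards CP), and Moxd1 likewise rests on such CP signals. Ccn2 lies high at 3.43, and Nxph4 and Pls3 lie near 0.

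Other genes reported in subplate neurons, or in subplate and layer 6 neurons together, leaned towards CP. Of 18 such genes, 17 had a probe and 16 were tested. Of these 16, 13 were higher in CP and 3 higher in V/SVZ, with a median difference of -2.70. Of all tested genes, 44.6% were called towards CP and 35% towards V/SVZ. Gabra5, Cdh18 and Trh entered the test through CP alone and Inpp4b through V/SVZ alone, which favours those directions. With only probes well above background on all 8 arrays, the counts were 10 and 2. Ngfr, the p75 neurotrophin receptor, was 45.9-fold higher in CP (limma adjusted p = 4.88e-10). Npy, a neuropeptide, was 38.0-fold higher (limma adjusted p = 3.85e-08), and Kcnab1, a potassium channel subunit, was 17.2-fold higher (limma adjusted p = 1.03e-08). With normexp these folds were 25.6, 32.4 and 11.7. The genes higher in V/SVZ were Svil (5.37-fold), which encodes an actin-binding membrane protein, Inpp4b (at least 4.48-fold, 2.54-fold with normexp), a lipid phosphatase, and Tpd52l1 (1.24-fold). They were named after their values were seen. Htr1d was not bright enough to be tested, and no probe matched Hs3st4. Of the 16 tested genes, 4 (Zfpm2, Foxp2, Npy and Sst) stand also in the lists of deep-layer neurons or interneurons, and among the other 12 the counts were 9 higher in CP and 3 higher in V/SVZ.

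The lists of other neurons and of other cell types give the setting of these values. Deep-layer markers (12 of 12 called higher in CP) had a median difference of -3.0, among them Ntsr1 (152-fold), Nfe2l3 (55.1-fold, 25.6-fold with normexp) and Ldb2 (25.4-fold). Cajal-Retzius markers (10 of 10 called higher in CP) had a median of -3.53, among them Cacna2d2 (13.5-fold), Nhlh2 (9.96-fold) and Trp73 (1.67-fold). Trp73 had 2 tested probes, and its log2 difference ran from -3.86 to -0.65 over the alternatives. Of the 10 Cajal-Retzius markers, only 4 were well above background on all 8 arrays. The others entered the test through CP alone, which favours that direction, so the count and the median rest partly on the filter. Upper-layer markers (9 tested) were higher in V/SVZ for 4 and in CP for 4, and Inhba (50.6-fold) and Mef2c (36.5-fold) were higher in CP. Interneuron markers (12 of 13 tested) were higher in CP for 8 and in V/SVZ for 3, and Sst (3.82-fold) and Gad1 (1.91-fold) were higher in CP. Progenitor markers (10 tested) had a median of 4.64, with Eomes (336-fold, 193-fold with normexp), Neurog2 (47.8-fold) and Fabp7 (41.7-fold) higher in V/SVZ. Oligodendrocyte lineage markers (7 tested) were higher in V/SVZ for 2 and in CP for 2, with Mbp (2.98-fold) higher in CP and Olig2 (2.33-fold) higher in V/SVZ. Microglia markers had a median of 2.01, with P2ry12 (5.22-fold), C1qc (4.52-fold) and Cx3cr1 (4.25-fold) higher in V/SVZ. The median of the subplate markers (0.19) is the value of Pls3, which was not called. It lay between the medians of the progenitor and the deep-layer lists. So did those of all tested genes (-0.09) and of the upper-layer (0.11), interneuron (-0.59) and microglia lists, so this place is not particular to the markers. The part of progenitors or microglia in the differences of Ccn2, Lpar1 and Moxd1 was not tested.

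**Figure D5:**
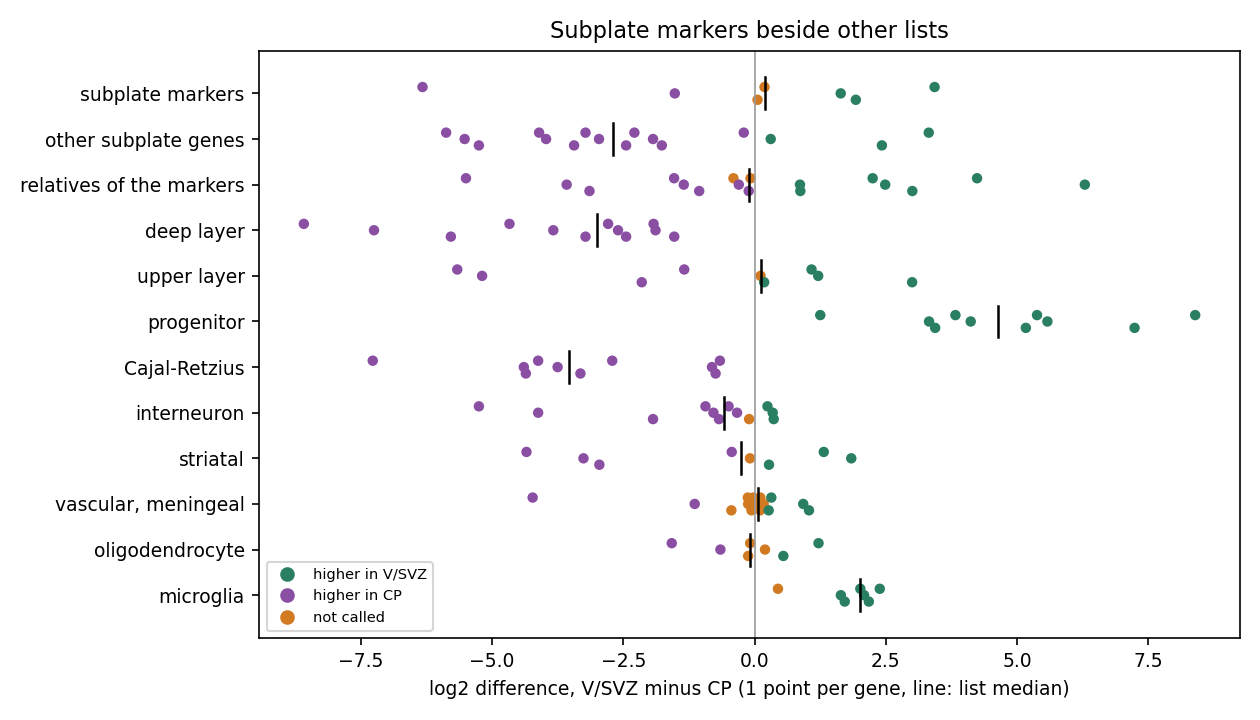
Tested genes of the 9 subplate markers and of 11 other lists. The horizontal axis is the log2 difference, V/SVZ minus CP, each point is a gene by its brightest tested probe, colours give the call, and black lines are list medians. The subplate markers lie on both sides of 0 around a median of 0.19, whereas other subplate genes have a median of -2.70. Drd1, the leftmost marker, is drawn at a fitted value that rests on V/SVZ signals not well above background.

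The genes most like 3 of the markers in their profile over the 8 arrays were also listed. Likeness is the root mean square of the log2 difference between profiles, each centred on its own mean, over 12544 genes with a symbol that were well above background on all arrays. Closest to Ccn2 were Ugt1a6b (0.153), Fam210b (0.175) and 2010204K13Rik (0.189). Closest to Nr4a2 were Sema3e (0.151), a secreted semaphorin, Msra (0.185) and Wasf1 (0.202). Closest to Nxph4 were Arvcf (0.0338), a catenin, Plaat3 (0.0367) and Kat14 (0.0475). For Ccn2 and Nr4a2 these distances are small beside the differences between the tissues, which set most of the likeness, and with 8 arrays of 2 tissues many genes share such a profile. No likeness was computed for Cplx3, whose probe was not well above background.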

How the data were processed

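Total RNA (100 ng) of 4 V/SVZ and 4 CP samples was, per the labels' protocols, amplified and labelled with Cy3. The deposited intensity values come, per the file headers, from Agilent Feature Extraction 10.7.1.1, which subtracted background within each array. Groups and replicate numbers came from the sample titles. The authors also deposited a log2 table of 17185 rows, centred on each row's median in 99.8% of rows (tolerance 1e-05), with column medians from -0.03 to 0.02. Each column tracked the array that has its number but belongs to the other tissue, so the table served only as an alternative, turned to the scanner files' direction. Its filter and its scaling between arrays are not given in the sources used here. It left 0 columns unmapped.

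Control spots and outlier spots (142 to 258 per array) were left out, 0 gene spots were saturated, and spots of a probe were averaged. Processed signals were put on the log2 scale and the 75th percentile of each array was subtracted. A probe entered the test if every array of 1 tissue or of both (4 each) read it well above background and no tissue had fewer than 3 values. The test was limma 3.58.1 under R 4.3.3 (lmFit, eBayes), with Benjamini-Hochberg adjustment over all 23860 tested probes and a threshold of 0.05. A gene stands by its brightest tested probe. Symbols came from RefSeq accessions (26761 probes matched, 12668 did not). The array headers name build mm9, so coordinates are given only for RefSeq promoters. The procedure was tested on simulated data.

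The members and the 11 other gene lists were chosen with earlier results of these data known. Named genes were all members and their tested relatives, from each other list the 3 largest differences in absolute size among called genes detected on all 8 arrays, and the 3 genes most like Ccn2, Nxph4, Nr4a2 and Cplx3, while 2 further genes of this rule are not reported here. Same-numbered arrays of the tissues tended to deviate together (r of 0.122 to 0.339 over all tested probes, against -0.379 to 0.169 for other numbers). These ranges overlap, and 6 of the 8 arrays went best with their own number. The same-numbered arrays also have the same position on their slides, so paired samples and a shared position cannot be told apart by this check. Alternatives covered scaling, background (normexp, offset 50, on median signals, since no mean signal is given), the filter, the choice of probe, the variance model, array weights, a replicate block, the deposited table and each array left out. The number of arrays limits the precision.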

Additional observations from a re-analysis of the deposited data

Results flagged for a closer look

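Of 26 groups of 4 arrays checked, 1 held a value far from the others. For Moxd1, probe A_51_P493987, CP array 4 lay at -5.26 on the log2 scale, above CP arrays 1 to 3 at -5.73, -5.74 and -5.69. The gap took 0.901 of the range of the group, above Dixon's 95% limit for 4 values. Chance alone gives about 1 such value in 20 groups. None of the 4 CP values was well above background, and without CP array 4 the difference was 2.04, with Moxd1 still called higher in V/SVZ.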

How the results depend on the processing

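Under the alternatives, 3 members were called towards V/SVZ and 2 towards CP, with these exceptions. With probes well above background on all 8 arrays alone, which leaves out Moxd1 and Drd1, 2 members were called towards V/SVZ and 1 towards CP. The deposited table holds 4 marker probes (those of Nxph4 and Nr4a2), and gave 0 members towards V/SVZ and 1 towards CP. There, 7 of the other subplate genes were higher in CP, against 13, and the counts of most other lists fell too, the table holding 17163 gene probes in all. Leaving out 1 array at a time gave 3 and 2 members throughout and 12 to 13 other subplate genes higher in CP. The replicate block changed no call of a member probe: Lpar1 had adjusted p = 2.76e-05 in limma with the block. Signs turned for Nxph4 with normexp background (-0.016, probe A_55_P2165008) and spike-in scaling (-0.012, probe A_55_P2085311). They turned for Lpar2 with normexp (0.031), for the probe ratio of Nxph4 with normexp (0.025), and for Drd4 with median scaling (0.012), quantile normalization (0.0157) and when V/SVZ array 1 or CP array 3 was left out (range over all 8 left out in turn, -0.135 to 0.038). The cause was not tested. Averaging the probes of a gene gives no count over probes. The median difference of all probes ran from -0.16 to 0.00 under the other scalings, against -0.09. Signal near background limits Cplx3, Tmem163 and the dim tissue of Moxd1 and Drd1, whose folds depend on the background correction.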
